A study of Arabidopsis thaliana with 3 samples.

Results

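AT1G30690 is an Arabidopsis thaliana gene on chromosome 1 that the authors' deposited table annotates as a putative patellin-5 and that is usually numbered PATL4 in the Arabidopsis family. It was taken as the 2 table entries whose transcript identifier starts with AT1G30690, out of 14437 entries, which makes it 1 of 6814 genes. The gene was chosen by measured values of these same libraries, namely the change in its second-window share after 90 min of far-red. Its start window values are therefore a description here, and no test is attached to them.

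The libraries were made by PEAT, paired-end sequencing of the capped ends of transcripts, in which each read marks the 5′ end of a transcript. Total RNA came from whole 10-day-old wild-type seedlings of the Col-0 accession, the common laboratory strain, with no transgene or mutation named in the labels. One library came from seedlings in white light, 1 from seedlings given 45 min and 1 from seedlings given 90 min of light enriched in far-red, as below a leaf canopy. They are called the WL, FR45 and FR90 libraries from here on. With 1 library per condition, every difference is one between libraries, without a replicate check. The table total, over 1 transcript per gene, was 3440656, 4373900 and 4125024 reads in WL, FR45 and FR90. The summed level of 3 far-red response genes (ATHB2, PIL1 and HFR1) was 278 RPM (reads per 1000000 of the table total) in WL, 1945 RPM in FR45 and 1496 RPM in FR90. From FR45 to FR90 ATHB2 went from 1509 to 659 RPM, while PIL1 went from 46.2 to 74.4 RPM and HFR1 from 390 to 763 RPM. Of 5 leaf genes the table held PSBO1, and of 5 root genes PYK10 and MYB36, all with reads in every library. PSBO1 stood at 16332, 25929 and 19582 RPM, and the summed root genes at 9898, 6852 and 7979 RPM in WL, FR45 and FR90. PYK10 makes up nearly all of that sum, and MYB36 stood at 13.7, 18.3 and 10.4 RPM, highest in FR45 where PYK10 was lowest. Their part in the values of AT1G30690 was not tested. In RNA of whole seedlings, a change in the number of cells of a type and a change in RNA per cell cannot be told apart.

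Patellins are plant proteins with a variable amino-terminal part, a Sec14 lipid-binding domain, which the Pfam database calls the CRAL/TRIO domain, and a carboxy-terminal GOLD domain. They bind phosphoinositides and have been linked in Arabidopsis to membrane traffic, to the growth of the cell plate in dividing cells and to the placement of auxin transporters. A transcript that begins inside a coding sequence lacks the codons upstream of its start, so it could encode a shorter protein only from a later start codon.

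The table splits the 5′ ends of a transcript into a first start window, 1 or more second start windows inside the coding sequence, and reads outside them. AT1G30690 has 2 annotated transcripts in the table, AT1G30690.1 and AT1G30690.2, and 1 second window in each. All 9 read counts are the same in both transcripts, so the reads cannot be assigned to either, and they are counted once here. The coding sequence is 1623 bases long in both, or 541 codons with the stop codon. Downstream of the second window lie 877 bases in AT1G30690.1 and 875 bases in AT1G30690.2, a difference of 2 bases. In AT1G30690.1 the second window thus lies 746 bases into the coding sequence, with 54.0% of it left, which is 292 whole codons. Over the 10220 second windows of 1 transcript per gene, the median was 48.0% left (quartiles 28.2% and 69.8%), so the second window of AT1G30690 lay near the middle of this range.

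In the authors' deposited table, 1 Pfam domain is listed downstream of the second window of AT1G30690, the CRAL/TRIO domain, with an overlap value of 100. Neither the amino-terminal CRAL/TRIO domain nor a GOLD domain is listed there, and the table names a GOLD domain in 0 genes, so nothing can be read from its absence. Over all second windows of 1 transcript per gene, 57.0% had at least 1 domain listed. A CRAL/TRIO domain of the same family was left downstream in 11 genes of the table, AT1G30690 included.

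**Figure D1:**
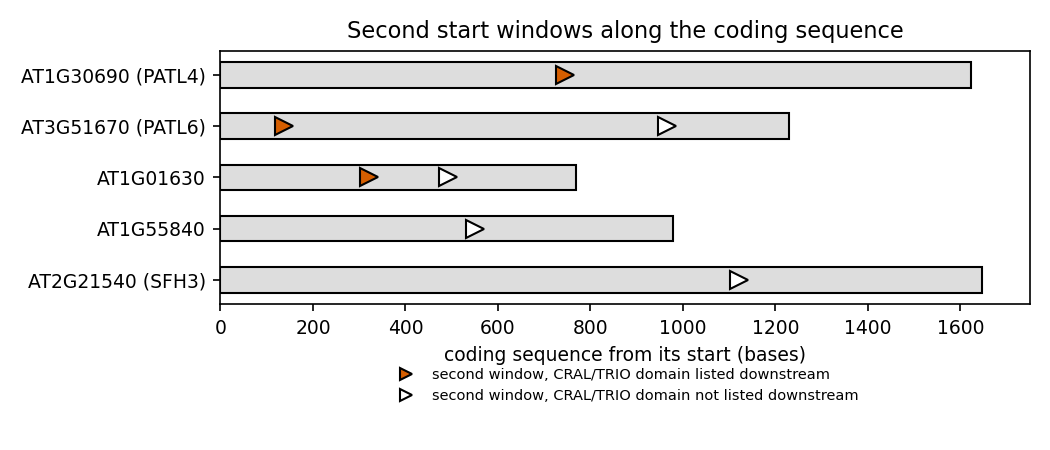
Coding sequences of AT1G30690, the other patellin in the table and 3 further Sec14 genes, drawn as bars to scale in bases from the start of the coding sequence, with an arrowhead at each second start window. Filled arrowheads are windows with a CRAL/TRIO domain listed downstream, as for the window 746 bases into AT1G30690.

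The summed reads of AT1G30690 differed little between the libraries. The transcript had 549 reads in WL (160 RPM, 95% exact Poisson interval 146 to 173 RPM), 797 in FR45 (182 RPM, 170 to 195 RPM) and 713 in FR90 (173 RPM, 160 to 186 RPM). WL was lowest and FR45 highest, and neighbouring values in this order had overlapping intervals. The level was 1.14-fold higher in FR45 than in WL (95% interval 1.02 to 1.28, counting error only) and 1.08-fold higher in FR90 (0.968 to 1.21). Between FR45 and FR90 the fold was 0.949 (0.856 to 1.05). None of the 3 ratios reached 2-fold. Of the genes with at least 20 reads in both libraries of a pair, 19.4%, 21.8% and 13.8% did (FR45 against WL, FR90 against WL, FR90 against FR45). On the log2 scale with a pseudocount of 1 RPM the ratios of AT1G30690 were 0.19, 0.11 and -0.08. The median over the genes with that many reads was -0.07, -0.04 and 0.04.

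Reads in the first window were most numerous in WL and fewest in FR90. There were 299 in WL, 173 in FR45 and 15 in FR90. In RPM these are 86.9 (95% Poisson interval 77.3 to 97.3), 39.6 (33.9 to 45.9) and 3.64 (2.04 to 5.998). The intervals cover counting error only. Nothing is read from the distance between them, since first-window reads enter the share that chose the gene. The first-window level in WL was 2.20 times that in FR45 (95% interval 1.82 to 2.67) and 23.9 times that in FR90 (14.3 to 43.2). FR90 held 15 such reads, so that ratio is known only within a wide interval. The level in FR45 was 10.9 times that in FR90 (6.41 to 19.9).

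The second window, upstream of the CRAL/TRIO domain, held more reads in the far-red libraries than in WL, and nearly the same number in both of them. It held 49 reads in WL, 378 in FR45 and 383 in FR90. As levels these are 14.2 RPM (10.5 to 18.8), 86.4 RPM (77.9 to 95.6) and 92.8 RPM (83.8 to 103). WL lay far below both far-red libraries, whose intervals overlap. The level was 6.07-fold higher in FR45 than in WL (95% interval 4.50 to 8.35) and 6.52-fold higher in FR90 (4.83 to 8.97). From FR45 to FR90 the fold was 1.07 (0.930 to 1.24).

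Reads outside both windows made up the rest of the transcript, with 201 in WL, 246 in FR45 and 315 in FR90. They stood at 58.4 RPM (50.6 to 67.1), 56.2 RPM (49.4 to 63.7) and 76.4 RPM (68.2 to 85.3), highest in FR90. Of all reads of the transcript, the first window took 54.5% in WL, 21.7% in FR45 and 2.10% in FR90. The second window took 8.93%, 47.4% and 53.7% of them, and 36.6%, 30.9% and 44.2% lay outside both. Between FR45 and FR90, first-window reads thus changed by -158, second-window reads by 5 and reads outside both by 69, before any scaling for depth.

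**Figure D2:**
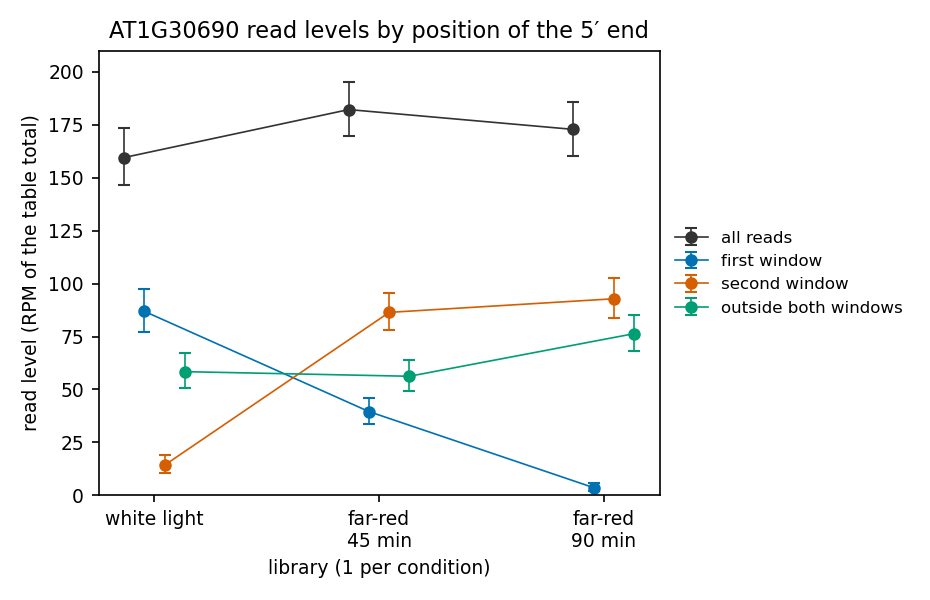
Read levels of AT1G30690 in RPM of the table total, for each of the 3 libraries, as all reads, reads in the first window, reads in the second window and reads outside both. Error bars are 95% exact Poisson intervals of the counts, and lines join values of 1 kind. All reads stay between 160 and 182 RPM, while the first window goes from 86.9 to 3.64 RPM and the second from 14.2 to 92.8 RPM.

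As a share of the reads in both windows, the second window had 14.1% in WL (49 of 348 reads, 95% Wilson interval 10.8% to 18.1%). It had 68.6% in FR45 (378 of 551, 64.6% to 72.3%) and 96.2% in FR90 (383 of 398, 93.9% to 97.7%). The order from low to high is WL, FR45, FR90. Nothing is read from the distance between the intervals, since the change in this share chose the gene. For each first-window read there were 0.164 second-window reads in WL, 2.18 in FR45 and 25.5 in FR90. The first window was thus the larger one in WL and the second the larger one in both far-red libraries. The share differed by 54.5 points between FR45 and WL (95% Newcombe interval 48.8 to 59.5), by 82.2 points between FR90 and WL (77.5 to 85.7) and by 27.6 points between FR90 and FR45 (23.2 to 31.9). Both far-red differences use the same WL library, and all 3 intervals cover counting error only. With all reads of the transcript as the denominator, the last difference was 6.29 points. Second-window reads were then 378 of 797 in FR45 and 383 of 713 in FR90.

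The authors' deposited table gives ratios of raw reads without scaling by library size. It lists the first-window ratio of AT1G30690 as 0.579 for FR45 over WL, 0.0502 for FR90 over WL and 0.0867 for FR90 over FR45. The relative ratio in the authors' deposited table, which divides the second-window ratio by that of the first window, was 13.3, 156 and 11.7 in the same order.

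Large differences in second-window share between these libraries were common among the genes of the deposited table. That table is a selection by a rule not given. All genes, in this text, therefore means the genes it holds and not all genes of the plant. Every gene with at least 20 window reads in each library of a pair was put through a two-sided Fisher's exact test. The test, adjusted by the Benjamini-Hochberg method, compares libraries and not conditions. For FR45 against WL, 65.9% of 6095 genes passed an adjusted p under 0.05 with a change of at least 10 points. The percentage was 68.1% of 6094 genes for FR90 against WL and 57.5% of 6357 genes for FR90 against FR45. AT1G30690 is among the genes past this threshold in each pair, and nothing is read from that, since its change chose it. The median absolute change over all genes tested was 18.5, 20.3 and 14.7 points in the 3 pairs. Among the other genes tested, 608 of 6094 (9.98%) changed by at least as much as AT1G30690 in FR45, 239 of 6093 (3.92%) in FR90 and 1629 of 6356 (25.6%) between FR45 and FR90. The changes were smaller in genes with many reads. Among genes with 300 or more window reads in each library of a pair, a minimum chosen after the values of AT1G30690 were seen, the median absolute change was 9.53 points for FR45 against WL, 9.12 points for FR90 against WL and 8.11 points for FR90 against FR45.

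Of 1382 other genes with that many reads, 1 changed by at least as much for FR45 against WL. For FR90 against WL 0 of 1373 did, and for FR90 against FR45 63 of 1545 did. Nothing is read from these counts, since its change chose AT1G30690 and the minimum was set after its values were seen. The 1 gene was AT5G01090, named after its values were seen, which the authors' deposited table annotates as a putative lectin-like receptor kinase. It changed in the other direction, from a share of 80.1% in WL to 21.96% in FR45 and 56.2% in FR90. A share that was higher in FR45 than in WL and higher again in FR90, the order seen in AT1G30690, occurred in 1322 of 5899 genes (22.4%) with at least 20 window reads in every library. The opposite order occurred in 961 genes (16.3%).

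**Figure D3:**
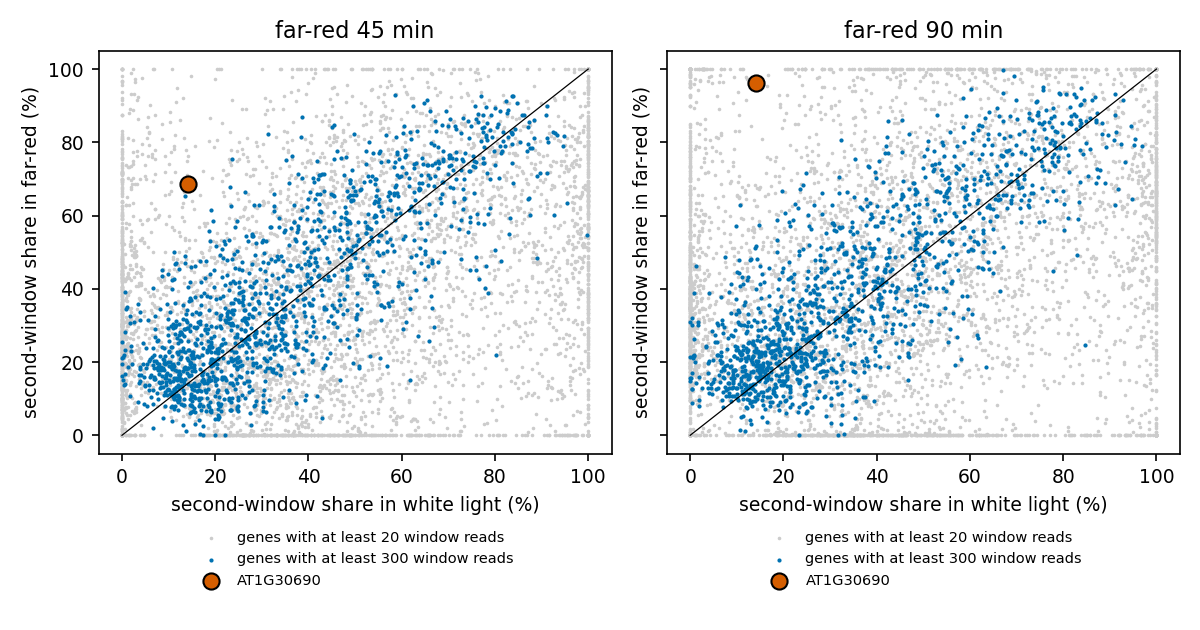
Second-window share in far-red against that in WL, in percent, for genes with 20 or more window reads in each library of the pair (grey) and 300 or more (blue), in FR45 (left) and FR90 (right), with the line of equal shares. AT1G30690 (orange) lies at 14.1% in WL against 68.6% in FR45 and 96.2% in FR90.

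AT1G30690 overlaps 0 other annotated genes in the RefSeq annotation of assembly TAIR10.1, and 0 other genes of the table have the same window counts. Its neighbour AT1G30680, listed there as the Arabidopsis homologue of TWINKLE, a DNA helicase of organelles, is also in the table. Second-window reads of AT1G30680 were 0 of 110 window reads in WL, which allows a share of up to 2.73%, then 6 of 24 (25%) in FR45 and 57 of 121 (47.1%) in FR90. Its level was 50.3, 48.9 and 54.5 RPM. The neighbour on the other side, AT1G30700, has no entry in the deposited table.

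Of the 6 Arabidopsis patellins, the table held AT1G30690 and AT3G51670, usually numbered PATL6. AT3G51670 has a coding sequence of 1230 bases and 2 second windows. One leaves 1092 bases, with the amino-terminal CRAL/TRIO domain and the CRAL/TRIO domain listed downstream, and the other leaves 264 bases, with no domain listed. All reads of AT3G51670 stood at 36.3 RPM in WL, 103 RPM in FR45 and 72.7 RPM in FR90, so this patellin was 2.83-fold and 2.002-fold higher in the far-red libraries, where AT1G30690 was 1.14-fold and 1.08-fold higher.

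The windows of AT3G51670 were ordered unlike those of AT1G30690. First-window reads of AT3G51670 were 1 in WL, 156 in FR45 and 81 in FR90. Its second windows together held 114, 170 and 162 reads, a share of 99.1% in WL (95% Wilson interval 95.2% to 99.8%), 52.1% in FR45 (46.7% to 57.5%) and 66.7% in FR90 (60.5% to 72.3%). The far-red shares of this patellin thus lay below its WL share, where those of AT1G30690 lay above. The difference between the 2 genes was not tested. Set alone against the first window, the window with 1092 bases left had 97.1%, 19.2% and 22.9%, and that with 264 bases left had 98.8%, 46.0% and 63.0%.

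Beyond the patellins, Sec14-domain proteins of plants carry lipids between membranes or present them to enzymes. The table held 13 genes other than AT1G30690 with a Sec14, CRAL/TRIO, GOLD or patellin entry in their names, annotation or listed domains. They include the patellin AT3G51670, and all 13 had enough window reads to be tested in both far-red comparisons. In FR45 2 of them had a higher and 7 a lower share past the threshold, where 31.9% and 34.1% of all genes tested were higher and lower. In FR90 2 were higher and 8 lower, where 37.6% and 30.6% of all genes were higher and lower. Among the higher ones was AT4G36640, named after its values were seen. Its share was 38.8% in WL, 55.4% in FR45 and 93.3% in FR90, the same order as in AT1G30690. These rest on 67, 92 and 45 window reads, and it was not past the threshold in FR45. The median change of these genes was -15.8 points in FR45 and -23.0 points in FR90, against 0 and 2.42 points over all genes tested. Their changes ran from -87.0 to 50 points in FR45 and from -87.0 to 54.5 points in FR90. These extremes rest on few reads. The lowest in both was AT1G75170, with 23, 54 and 45 window reads in WL, FR45 and FR90. The highest in FR45 was AT1G14820, with 34 window reads in WL and 38 in FR45, and the highest in FR90 was AT4G36640. AT1G30690 had 54.5 and 82.2 points, but its change chose it, so nothing is read from its place above both ranges.

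The 3 of these genes with the most window reads, patellins aside, were AT1G01630, AT1G55840 and SFH3 (AT2G21540). AT1G01630, annotated as a CRAL/TRIO domain protein, had a second-window share of 61.6% in WL, 68.1% in FR45 and 63.3% in FR90, and did not pass the threshold at either time. AT1G55840, annotated likewise, had 21.8%, 6.03% and 23.9%, lowest in FR45 and past the threshold there. SFH3, a Sec14-like protein, had 0 of 71 window reads in its second window in WL, which allows up to 4.23%, then 21.3% in FR45 and 12.2% in FR90, both past the threshold. Of these 3 genes, only AT1G01630 has a second window with a CRAL/TRIO domain listed downstream, in the window with 446 bases left.

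The genes whose second-window shares were most like those of AT1G30690 were found by the Euclidean distance of the 3 shares, among 3108 genes with at least 100 window reads in every library. The nearest was EFS (AT1G77300), a histone methyltransferase that delays flowering, at a distance of 8.62 points. Its share was 19.2% in WL, 70.3% in FR45 and 89.5% in FR90. Next came AT2G40660, annotated as a putative methionyl-tRNA synthetase, at 12.2 points, with 23.3%, 73.8% and 90.15%.

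THO2 (AT1G24706), a subunit of the THO complex that couples transcription to messenger RNA export, lay at 14.3 points, with 26.2%, 61.9% and 100% (0 of 113 window reads were in the first window in FR90, which allows up to 2.65%). AT5G26600, annotated as a putative aminotransferase, lay at 15.8 points, with 0.820%, 73.8% and 89.3%. AT5G19510, annotated as an elongation factor, lay at 16.02 points, with 6.67%, 69.4% and 82.1%. These 5 genes had 105 to 163 window reads in WL against 348 in AT1G30690, so their shares are less precise. The shares of EFS and AT5G26600 sum 2 second windows each and that of AT5G19510 sums 4. AT2G40660 and THO2 have 1, as AT1G30690 has. The genes named depend on the minimum of reads, since 2 of the 5 were also among the nearest at a minimum of 50 window reads and 0 at a minimum of 200.

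**Figure D4:**
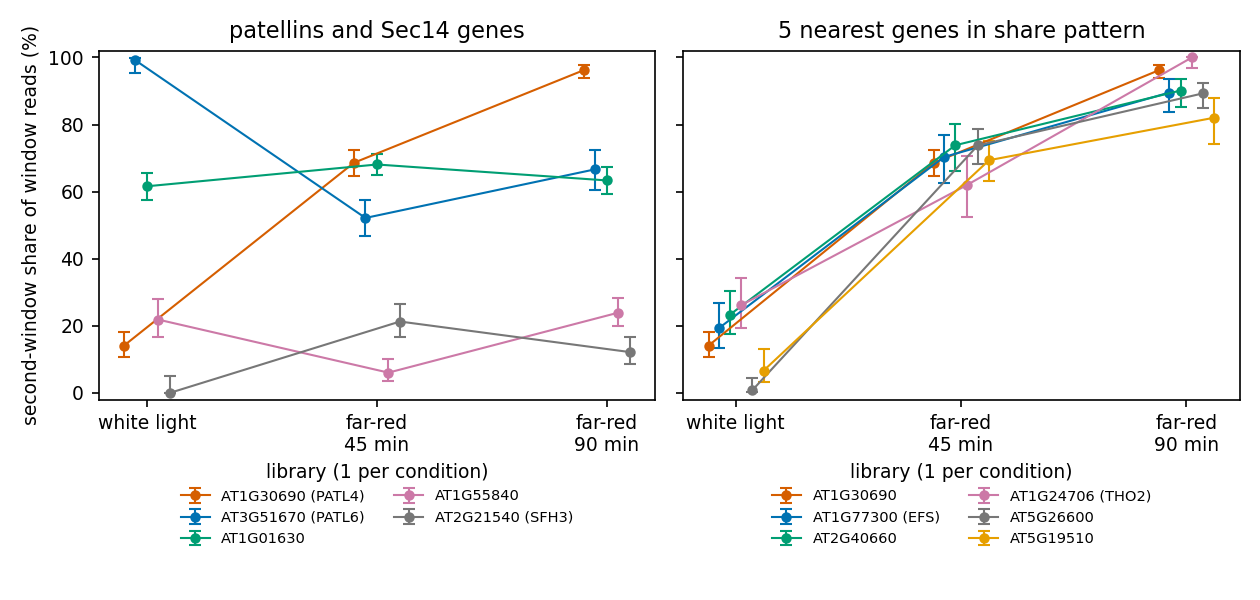
Second-window share of window reads, in percent, in the 3 libraries, for AT1G30690 with the other patellin and 3 Sec14 genes (left) and with the 5 genes nearest to it in share (right). Error bars are 95% Wilson intervals, and points are shifted sideways for legibility. AT1G30690 goes from 14.1% to 68.6% and 96.2%, and AT3G51670 from 99.1% to 52.1% and 66.7%.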

How the data were processed

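PEAT libraries were made from 3 samples, grouped by the treatment in the labels, with 1 library each. The deposited values are raw read counts for the transcript, its first window and its second window, per the file headers. The submitters' processing notes name FastQC, cutadapt, HISAT2 2.0.5, SAMtools 0.1.19, bedtools 2.17.0 and the builds TAIR9 and TAIR10, without roles. Window widths, duplicate removal, strand handling and the rule that selected entries are not given in the sources used here. Per the file headers, the authors also gave Fisher's exact test p-values, not printed here, and ratios (fold changes) of raw window counts. The table is a selection with at least 100 reads per transcript, so its total is not library depth.

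One transcript stood for each gene (most reads, then lowest isoform number), and its second windows were summed. Levels were scaled to 1000000 reads of the table total, and log2 ratios used a pseudocount of 1 RPM. Share intervals are Wilson intervals, those of a difference Newcombe intervals, those of a level exact Poisson intervals, and those of a ratio of levels exact conditional binomial intervals (95% each, scipy 1.17.1). The limits set by a count of 0 are 3 reads over the window reads, an approximate one-sided 95% limit. They are narrower than the two-sided Wilson intervals of the same shares. Reads copied by PCR carry no molecular identifiers here and need not be separate molecules. All intervals and these limits therefore cover counting error only. For the background, Fisher's exact test, two-sided, was run on genes that reached 20 window reads in each library of a pair, with Benjamini-Hochberg adjustment over all of them. Its trial on simulated data held counting error only, so it does not cover PCR copies or other differences between libraries. The test compares libraries, not conditions.

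The named genes were AT1G30690, the patellins in the table, the 3 other Sec14 genes with the most window reads, the 5 nearest genes in share and the neighbours in gene order. The Sec14 list was matched in gene symbols and synonyms of the RefSeq table, in the deposited domain names and in the deposited annotation, since the reference holds no product names. Of its 14 genes, 4 entered through a name or annotation alone. Among these is AT4G08690, whose CRAL/TRIO domain is listed by identifier but not by name. The gene and the lists were chosen with earlier results of these data known. Alternatives changed the denominator, transcript, scaling, pseudocount, minimum reads and threshold.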

Additional observations from a re-analysis of the deposited data

Results flagged for a closer look

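Reads outside both start windows do not enter the share of window reads, and enter only the share taken over all reads of the transcript. In AT1G30690 they made up 44.2% of the reads of the transcript in FR90 (315 of 713, 95% Wilson interval 40.6% to 47.8%), above the 36.6% in WL (201 of 549, 32.7% to 40.7%), and their level was 1.31-fold higher (95% interval 1.09 to 1.57, counting error only). In FR45 they made up 30.9% (27.8% to 34.2%). The median over genes with at least 20 reads was 8.62% in WL, 20.8% in FR45 and 14.9% in FR90. The share of AT1G30690 was above that of 87.6% of genes in WL, 68.99% in FR45 and 90.6% in FR90.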

How the results depend on the processing

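No paired analysis was possible because there is a single library per condition, which also leaves no replicate to omit. With all reads of the transcript as the denominator, the second-window share of AT1G30690 was 8.93%, 47.4% and 53.7% in WL, FR45 and FR90, with differences of 38.5 and 44.8 points from white light and 6.29 points between the far-red libraries. The other transcript and the second window taken alone gave the same shares, since the reads are the same. Of 36 log2 ratios of AT1G30690 under other scalings and pseudocounts, 0 changed sign and 34 stayed inside the counting interval. With a pseudocount of 5 RPM, the first-window ratio in FR90 was -3.41 against white light and -2.37 against 45 min, because the pseudocount exceeds the level in FR90.

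The genes past the share threshold were 4019, 4153 and 3653 in the 3 pairs (FR45 and FR90 against WL, FR90 against FR45). They were 2036, 2003 and 1865 with at least 100 window reads, and 748, 879 and 501 with a change of at least 50 points. When entries, not genes, were tested and counted, 7870, 8274 and 7335 passed. Fewer genes were tested at 100 window reads, and entries outnumber genes. These counts therefore do not show a change in the percentage past the threshold. Of the 5 nearest genes, 2 were kept with at least 50 window reads, 0 with at least 200, and 2 on the logit scale. The share of AT3G51670 in FR45 was 46.0% with only the window leaving 264 bases and 19.2% with only that leaving 1092 bases, which gave 22.9% in FR90. Depth limits the first window of AT1G30690 in FR90 most, with 15 reads.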
